A study of Mus musculus with 12 samples.

Results

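Gene expression in injured mouse spinal cord was compared between 2 kinds of transplanted mesenchymal stem cells (MSC), multipotent stromal cells given here as a cell graft. In the allogeneic group the cells came from a donor unmatched to the host, and in the syngeneic group from a genetically matched donor. The 6 libraries of these groups, 3 allogeneic and 3 syngeneic, were chosen by their labels out of 12 libraries in the series. Hosts in both groups were of the strain C57BL6/cJ and both had a spinal cord injury (SCI). The other 6 libraries, 3 from cord with SCI alone and 3 from non-injured cord of the same host strain, enter the comparison through the shared estimate of the spread and are otherwise used for levels. The tissue was spinal cord, and RNA was read from poly(A)-selected, strand-preserving libraries. The sources used here do not state the donor strain, the source, number and route of the cells, the time after injury, or the age and sex of the animals, and no sham or vehicle treatment is named for SCI alone.

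A host distinguishes a graft from its own tissue chiefly by molecules of the major histocompatibility complex (MHC), which present peptides to T cells. CD8 T cells read class I molecules and kill through granzymes, perforin and Fas ligand, and CD4 T cells read class II molecules. Activated T cells and natural killer (NK) cells release interferon gamma, which induces the transcription factor Irf1, the immunoproteasome, peptide transporters, MHC genes and a family of GTPases in nearby cells. Intact spinal cord holds few lymphocytes and little MHC, and injury is known to raise both.

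Total counts were 15119497, 8705942 and 21265564 in allogeneic replicates 1 to 3, and 23027831, 24947862 and 15473549 in syngeneic replicates 1 to 3. The libraries with SCI alone and without injury had between 15518403 and 26151928 counts. Pairwise correlations of log2 CPM (counts of a gene relative to the scaled library total) were 0.972 to 0.981 within the allogeneic group and 0.977 to 0.983 within the syngeneic group, against 0.990 to 0.991 within SCI alone. Syngeneic replicate 3 correlated more with the libraries of SCI alone (median 0.990) than with the other syngeneic libraries (median 0.979), and allogeneic replicates 1 and 3 also did so (0.985 and 0.981 with SCI alone, 0.972 and 0.976 with their own group). With the libraries of the opposite transplant the median was 0.985 for allogeneic replicate 1 and 0.982 for syngeneic replicate 3, in both cases above that with the own group. Whether replicates are separate animals is not stated in the labels; the p-values thus rest on sample-to-sample spread that may be technical. Going by title numbers, allogeneic and syngeneic samples come from separate ranges, so sample sets handled apart, if any, cannot be told apart from the donor.

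Of 16527 genes tested, 98 were called higher (0.593% of the genes tested) and 3 lower (0.0182%) with allogeneic than with syngeneic cells, by edgeR's quasi-likelihood test with Benjamini-Hochberg adjustment at 0.05. In all 101 called genes, the 3 allogeneic libraries did not overlap the 3 syngeneic ones. Lymphocyte genes led the list. Of the 98, 28 belonged to lists of T cell, cytotoxic and lymphocyte receptor genes, and 9 to lists of antigen presentation and interferon genes. Across all genes the fold change was centred near 0, with a median of -0.02 on the log2 scale. At an unadjusted p below 0.05, 1667 genes lay higher (10.1%) and 714 lower (4.32%). Libraries of the transplanted groups did not overlap in 7.03% of genes in the higher direction and 5.19% in the lower. These shares are the comparison for the list counts below. The called count depended on single libraries. It was 24 higher without syngeneic replicate 1, 25 without syngeneic replicate 2, 46 without allogeneic replicate 2, and 1135 without syngeneic replicate 3. Called higher whichever library was left out were 22 genes, and 19 of them also under every other setting tried: Acap1, Ccl5, Cd2, Cd247, Cd3e, Cd3g, Cd8a, Cd8b1, Ctsw, Cxcr6, Gimap3, Gimap4, Gzmk, Klrc1, Ms4a4b, Nkg7, Tbc1d10c, Themis and Tigit.

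**Figure D1:**
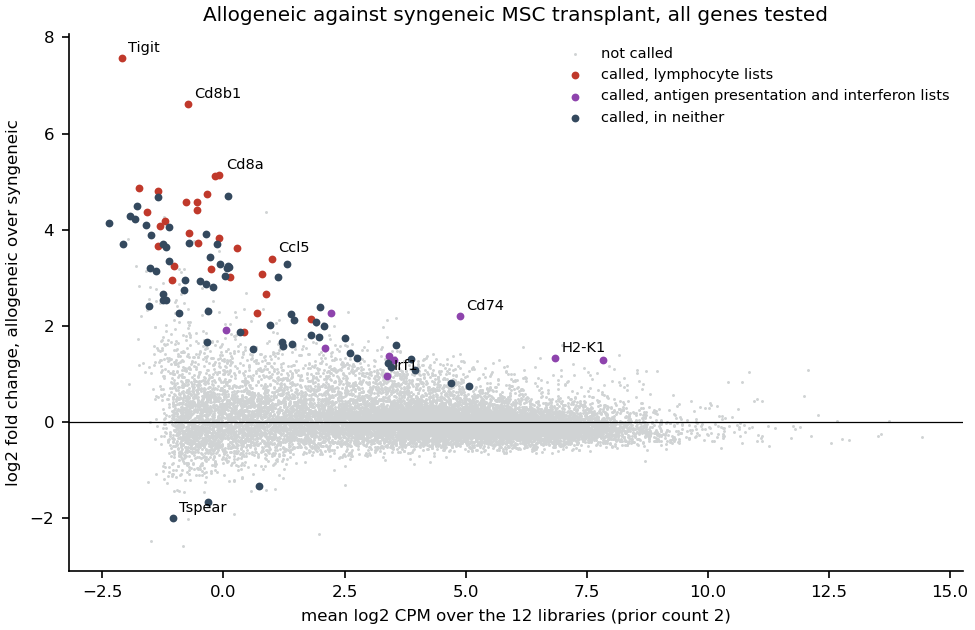
Each point is 1 of the 16527 genes tested; the x axis is the mean log2 CPM over the 12 libraries and the y axis the log2 fold change, allogeneic over syngeneic. Coloured points are the 101 called genes: 98 lie above 0, led by lymphocyte genes at low mean levels, and 3 lie below.

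Most genes of the T cell receptor complex and its co-receptors rose with allogeneic cells. Of 18 listed genes, all measured, 15 were called higher, all 18 had an unadjusted p below 0.05, and 17 had libraries that did not overlap (7.03% of all genes did so in this direction). The median log2 fold change of the 18 genes was 3.45, against -0.02 over all genes. The called number was 7 without syngeneic replicate 1 and 9 without syngeneic replicate 2.

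The CD8 co-receptor showed the widest gap. Cd8b1, its beta chain (chromosome 6, bases 71322788 to 71337494 of GRCm38), had 133, 132 and 147 counts in allogeneic libraries, against 4, 1 and 1 in syngeneic libraries. In CPM this was 8.63, 14.9 and 6.78 with allogeneic cells and 0.175, 0.0409 and 0.0642 with syngeneic cells. The 3 allogeneic libraries stood far above all others, since SCI alone had 0.227 to 0.549 CPM and non-injured cord at most 0.0625. The log2 fold change was 6.62 ± 0.54 (SE; adjusted p 0.00086). Cd8a, the alpha chain of the same receptor (chromosome 6, bases 71373427 to 71379173), had 13.9, 25.7 and 13.01 CPM with allogeneic cells, against 0.568, 0.245 and 0.707 CPM with syngeneic cells. SCI alone lay at the level of the syngeneic libraries, between 0.567 and 0.714 CPM, and non-injured cord had no counts. The fold change was 5.14 ± 0.41 (SE; adjusted p 0.000918).

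The signalling chains of the receptor moved likewise. Cd3e had 5.77, 8.35 and 3.87 CPM with allogeneic cells, against 0.262, 0.245 and 0.321 CPM with syngeneic cells, a log2 fold change of 4.41 ± 0.39 (SE; adjusted p 0.000918). Cd3g had 5.71, 14.1 and 6.27 CPM, against 0.131, 0.49 and 0.45 CPM. In both genes every allogeneic library exceeded every library of the other 3 groups. Lck, the kinase bound to the co-receptors, had 5.84, 12.98 and 5.72 CPM with allogeneic cells, against 0.918, 0.694 and 1.28 CPM with syngeneic cells. Its log2 fold change was 3.08 ± 0.35 (SE; adjusted p 0.00212). Smaller called rises were those of Zap70, the next kinase of the pathway (log2 fold change 1.86 ± 0.34, adjusted p 0.0322), and Trac, the constant region of the receptor's alpha chain (2.14 ± 0.29, adjusted p 0.00656).

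Cd4, the co-receptor of helper T cells, did not pass the adjusted test. Its level was 1.17, 2.26 and 2.17 CPM with allogeneic cells, against 0.35, 0.163 and 1.16 CPM with syngeneic cells, a log2 fold change of 1.84 ± 0.56 (SE; adjusted p 0.228). The highest syngeneic library, replicate 3, lay just under the lowest allogeneic one. Foxp3, the factor that defines regulatory T cells, was too low to test, with 0, 0 and 2 counts in allogeneic libraries and 4, 0 and 1 in syngeneic libraries. No difference in Foxp3 was detectable at this depth.

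**Figure D2:**
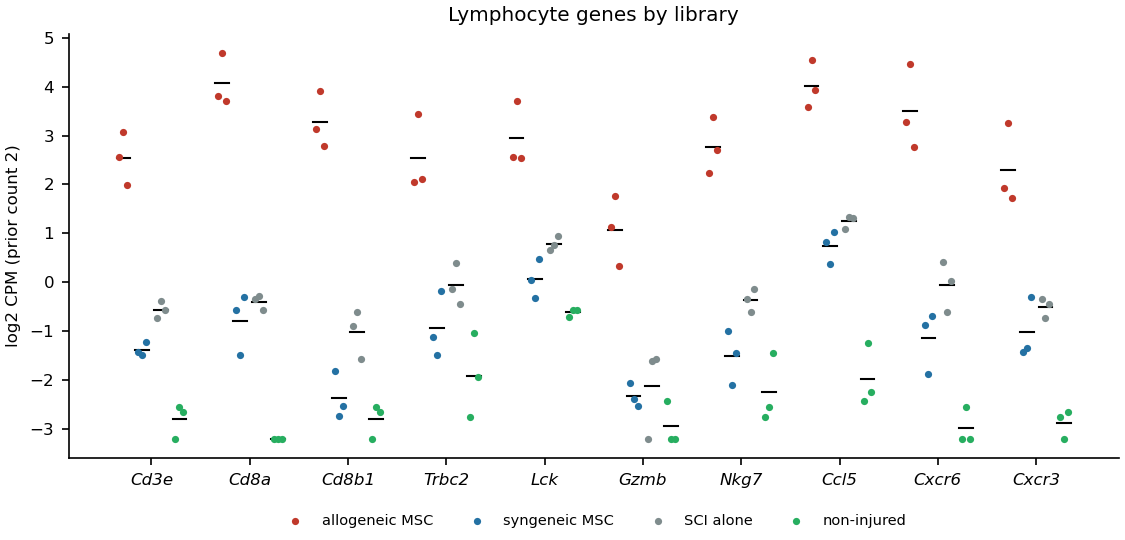
Log2 CPM (prior count 2) of 10 lymphocyte genes in each of the 12 libraries; points are libraries, black bars group means of 3. For all 10 genes the 3 allogeneic points lie above every other point; non-injured cord is lowest by its mean throughout.

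Several genes of the killing machinery rose as well. Of 16 listed cytotoxic and NK cell genes, 11 were high enough to test. Of these, 8 were called higher and 10 had an unadjusted p below 0.05 (10.1% of all genes did so in this direction). The median log2 fold change was 3.80. The called number was 5 without syngeneic replicate 1 or 2. Nkg7, a protein of cytotoxic granules, had 4.60, 10.3 and 6.46 CPM with allogeneic cells, against 0.393, 0.123 and 0.257 CPM with syngeneic cells (log2 fold change 4.75 ± 0.49 SE, adjusted p 0.00141). Gzmb, granzyme B, had 32, 29 and 25 counts in allogeneic libraries, against 3, 2 and 1 counts in syngeneic libraries. Its fold change was 4.36 ± 0.69 (SE; adjusted p 0.0145). Gzmk, granzyme K, had 24, 24 and 41 counts, against 2, 2 and 0 counts. Groups did not overlap in any of these 3 genes.

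Fasl, the ligand that triggers death through Fas, rose by 2.96 ± 0.46 on the log2 scale (SE; adjusted p 0.0135). Prf1, perforin, had 13, 29 and 15 counts with allogeneic cells, against 1, 1 and 4 counts with syngeneic cells, and missed the adjusted threshold (log2 fold change 3.80 ± 0.86 SE, adjusted p 0.123). Ccl5, a chemokine that T cells and NK cells store, had 11.9, 23.2 and 15.1 CPM with allogeneic cells, against 1.66, 1.18 and 1.93 CPM with syngeneic cells. SCI alone had 2.02 to 2.42 CPM of Ccl5, close above the syngeneic libraries. The Ccl5 fold change was 3.40 ± 0.32 (SE; adjusted p 0.000918).

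Receptors of NK cells, some of them shared with CD8 T cells, divided. Klrc1 and Klrd1, which pair as an inhibitory receptor, rose by 4.81 ± 0.61 and 3.93 ± 0.56 on the log2 scale (SE; adjusted p 0.00431 and 0.00777). Klrb1c, the NK1.1 antigen of NK cells in C57BL/6 mice, had a log2 fold change of -0.08, and its libraries overlapped. Ncr1, the NK cell receptor NKp46, was too low to test, with 0, 0 and 2 counts in allogeneic libraries and 3, 5 and 1 in syngeneic libraries. Ifng, interferon gamma itself, was also under the filter, with 3 counts in each allogeneic library, against 0, 1 and 0 in syngeneic libraries.

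Some receptors of tissue-resident and restrained lymphocytes rose with allogeneic cells. Of 15 listed genes 12 were tested, 5 were called higher and 11 lay higher at an unadjusted p below 0.05 (10.1% of all genes). The median log2 fold change was 1.56. The called number was 2 without syngeneic replicate 1, 3 without syngeneic replicate 2 and 9 without syngeneic replicate 3. Cxcr6, a homing receptor of resident T cells, had 9.66, 22.001 and 6.73 CPM with allogeneic cells, against 0.437, 0.163 and 0.514 CPM with syngeneic cells (log2 fold change 5.12 ± 0.57 SE, adjusted p 0.00187). Itgae, the integrin CD103 of resident CD8 T cells and some dendritic cells, had 6.42, 10.2 and 3.74 CPM, against 1.35, 1.27 and 0.45 CPM. All 3 allogeneic libraries of each gene exceeded the other 9.

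Tigit, an inhibitory receptor of T and NK cells, had 17, 13 and 28 counts in allogeneic libraries and no count in any syngeneic library. Set against a floor of 3 counts over the syngeneic group, its group level was at least 26.5-fold higher with allogeneic cells (adjusted p 0.00431). Pdcd1, which encodes the checkpoint receptor PD-1, and Lag3, another checkpoint receptor that microglia and neurons also carry, did not pass. Pdcd1 had 4.47, 6.77 and 5.21 CPM with allogeneic cells, against 2.14, 1.23 and 2.25 CPM with syngeneic cells (adjusted p 0.150). For Lag3 the values were 52.1, 59.3 and 56.5 CPM, against 27.6, 19.8 and 42.5 CPM (adjusted p 0.150). In both genes the allogeneic libraries all lay higher.

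Transcription factors of this lineage were looked at after their values were seen. Zfp683, Hobit of resident T cells, had 19, 12 and 24 counts with allogeneic cells, against 2, 0 and 1 counts with syngeneic cells (adjusted p 0.0127). Tbx21, T-bet of cytotoxic and type 1 helper cells, rose by 2.65 ± 0.49 on the log2 scale (SE; adjusted p 0.0348). Among called genes outside the lists were others best known in lymphocytes: Ms4a4b (log2 fold change 4.70 ± 0.44 SE, adjusted p 0.000918), the thymocyte signalling gene Themis (4.68 ± 0.47, adjusted p 0.00226), and Il7r, the interleukin 7 receptor chain (3.004 ± 0.46, adjusted p 0.0125). Of the Gimap family, small GTPases of lymphocytes whose members resemble each other, Gimap4 had 10.4, 19.9 and 9.46 CPM with allogeneic cells, against 1.14, 1.27 and 1.67 CPM with syngeneic cells.

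Calls of lymphocyte genes shrank without certain libraries, though the fold change of all 28 was positive each time. Of the 28, 14 passed without syngeneic replicate 1 (highest adjusted p 0.176), 17 without syngeneic replicate 2 (0.190), 24 without allogeneic replicate 2 (0.139) and 27 without allogeneic replicate 3 (0.0549). Of the genes named above, Gzmb, Fasl, Zap70, Zfp683, Tbx21, Il7r, Trac, Klrd1 and Itgae lost the call in at least 1 of these fits (adjusted p at most 0.241, for Tbx21). All 28 passed without syngeneic replicate 3 or allogeneic replicate 1. In bulk tissue, more cells of a type and more RNA per cell cannot be told apart. Of other blood cells, 6 of 7 tested red blood cell genes lay higher at an unadjusted p below 0.05 (10.1% of all genes). None was called, and the number was 1 of 7 without allogeneic replicate 3 and 4 of 7 without syngeneic replicate 1. The summed level of the 7 genes was 206 to 472 CPM with allogeneic cells and 86.1 to 225 CPM with syngeneic cells. The part of blood in the lymphocyte values was not tested.

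T cell receptor variable segments were counted in all libraries as a view of which receptors were present. Over 34 beta variable segments, allogeneic libraries held 30, 50 and 68 counts on 8, 12 and 11 segments, against 12, 2 and 5 counts on 6, 2 and 5 segments in syngeneic libraries. SCI alone had 9, 10 and 10 beta variable counts and non-injured cord 3, 1 and 2. The leading beta segment differed between allogeneic libraries. It was Trbv13-3 in replicate 1, with 11 of 30 counts (36.7%, exact 95% binomial interval 19.9 to 56.1%), Trbv14 in replicate 2, with 22 of 50 (44.0%, 29.99 to 58.7%), and Trbv17 in replicate 3, with 29 of 68 (42.6%, 30.7 to 55.2%). The intervals cover counting error only, several reads can come from 1 transcript, and reads of similar segments may be split. Over 128 alpha variable segments, allogeneic libraries held 23, 13 and 64 counts, against 14, 12 and 9 in syngeneic libraries. In CPM this was 1.49, 1.47 and 2.95, against 0.612, 0.490 and 0.578. SCI alone had 15, 11 and 11 alpha variable counts and non-injured cord 14, 8 and 9. Trac had 39, 52 and 33 counts in syngeneic libraries and 68, 36 and 41 in non-injured cord, so alpha chain reads were present without injury. In non-injured cord Trbc2 had 1, 6 and 3 counts and Cd8a had none. The called rise of Trac thus started from a level that these receptor genes did not share. The source of the Trac reads there was not tested. Trdc, the delta chain constant region, had 109 counts in allogeneic replicate 3 alone. It had 5 and 6 counts in the other 2 allogeneic libraries, 3 to 6 in syngeneic libraries and 12, 11 and 6 in SCI alone.

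B cell and antibody genes gave a mixed result. Of 12 listed genes 8 were tested, none was called and 3 lay higher at an unadjusted p below 0.05 (10.1% of all genes). Igkc, the constant region of the kappa light chain, had 54, 84 and 474 counts in allogeneic libraries, against 7, 17 and 11 counts in syngeneic libraries (log2 fold change 4.37 ± 1.03 SE, adjusted p 0.115). The groups did not overlap, but SCI alone ranged as widely, with 255, 26 and 22 counts. Jchain, which joins secreted antibodies, had a log2 fold change of 2.29 (adjusted p 0.237). Ighm, the heavy chain of IgM, had 42.1, 29.8 and 48.8 CPM with allogeneic cells and 46.4, 45.3 and 36.0 CPM with syngeneic cells, fully overlapping.

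MHC class I genes, which mark cells for CD8 T cells, had positive fold changes with allogeneic cells, and some rose. Of 16 tested genes, 6 were called higher, 15 had an unadjusted p below 0.05 and the same 15 had libraries that did not overlap. Over all genes the shares in this direction were 10.1% for such a p and 7.03% for no overlap. The median log2 fold change was 1.26. Genes of this list with near-identical copies, the H2-K1, H2-D1 and H2-Q genes, may share reads.

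H2-K1, a classical class I chain, had 263, 326 and 247 CPM with allogeneic cells, against 109, 84.2 and 143 CPM with syngeneic cells (log2 fold change 1.32 ± 0.24 SE, adjusted p 0.0372). H2-D1, the other classical chain, had 447, 600 and 563 CPM, against 211, 161 and 288 CPM (1.29 ± 0.21, adjusted p 0.0197). H2-Q7, a nonclassical chain, had 22.8, 29.3 and 11.9 CPM, against 5.16, 3.55 and 4.50 CPM (2.27 ± 0.31, adjusted p 0.00656). In these 3 genes SCI alone lay below every allogeneic library, with at most 183, 360 and 5.93 CPM. B2m, the chain common to class I molecules, had 682, 926 and 771 CPM with allogeneic cells, against 353, 301 and 519 CPM with syngeneic cells, and missed the threshold (1.02 ± 0.25, adjusted p 0.138).

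Genes that make and load class I peptides were among those called. Psmb8, a subunit of the immunoproteasome (chromosome 17, bases 34197721 to 34201454), had 24.1, 31.5 and 29.1 CPM with allogeneic cells, against 9.88, 9.44 and 15.7 CPM with syngeneic cells (log2 fold change 1.28 ± 0.23 SE, adjusted p 0.0309). Psmb9, a further subunit, had a log2 fold change of 1.53 ± 0.26 (SE; adjusted p 0.0257) and Tap1, the peptide transporter, one of 1.37 ± 0.26 (SE; adjusted p 0.0416). Psmb9 and Tap1 overlap each other on opposite strands, and the sources used here do not say how strand entered the counting. The remaining tested member of the list without an unadjusted p below 0.05 was Psmb10, with a log2 fold change of 0.26.

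MHC class II genes, carried by microglia, macrophages, dendritic cells and B cells, were higher in every allogeneic library. All 10 tested genes had libraries that did not overlap (7.03% of all genes in this direction) and 9 had an unadjusted p below 0.05 (10.1%). The median log2 fold change was 1.39, but only Cd74 was called. Without syngeneic replicate 3, 8 of the 10 were called; without allogeneic replicate 1 or 2, without syngeneic replicate 1 or 2, and with the 6 transplanted libraries alone, 0 were. Cd74, the invariant chain that guides class II molecules, had 224, 153 and 112 CPM with allogeneic cells, against 23.7, 21.9 and 62.0 CPM with syngeneic cells (log2 fold change 2.19 ± 0.42 SE, adjusted p 0.0456). H2-Aa and H2-Ab1, the chains of the I-A molecule, had log2 fold changes of 2.15 ± 0.44 and 2.11 ± 0.45 (SE) and adjusted p of 0.0641 and 0.081. H2-Aa had 84.7, 64.6 and 49.1 CPM with allogeneic cells, against 10.3, 8.17 and 26.7 CPM with syngeneic cells. Syngeneic replicate 3 was again the highest of its group and lay within the range of SCI alone, 22.4 to 28.9 CPM.

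Interferon gamma targets had positive fold changes throughout, but few passed the adjusted test. All 18 tested genes of this list had an unadjusted p below 0.05 and a positive fold change, with a median of 1.15 on the log2 scale; 2 were called, and 13 had libraries that did not overlap. None was called without syngeneic replicate 1 or 2 or with the 6 transplanted libraries fitted alone, against 7 without allogeneic replicate 3 and 11 without syngeneic replicate 3. Irf1 (chromosome 11, bases 53770014 to 53778374) is the transcription factor through which much of the response runs. It had 18.4, 19.97 and 18.3 CPM with allogeneic cells, against 9.27, 8.91 and 11.4 CPM with syngeneic cells, and SCI alone lay between, at 12.1 to 15.5 CPM. Its log2 fold change was 0.94 ± 0.13 (SE; adjusted p 0.00777). Tgtp1, an interferon-induced GTPase with the near-identical copy Tgtp2, had 3.18, 2.48 and 1.48 CPM, against 0.699, 0.694 and 0.450 CPM (1.90 ± 0.33, adjusted p 0.0265).

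Cxcl9 and Cxcl10 encode ligands of Cxcr3, the chemokine receptor of activated T cells. Cxcl9 had 8.95, 4.40 and 2.31 CPM with allogeneic cells, against 0.743, 0.286 and 2.38 CPM with syngeneic cells. The groups overlapped through allogeneic replicate 3 and syngeneic replicate 3 (log2 fold change 2.27 ± 0.64 SE, adjusted p 0.192). Cxcr3 itself was called, with 3.70, 9.48 and 3.18 CPM, against 0.262, 0.286 and 0.707 CPM (3.72 ± 0.51, adjusted p 0.00656); its call was lost without syngeneic replicate 1 or 2 (adjusted p 0.0597 and 0.0596). Cxcl10 had a log2 fold change of 1.14 ± 0.38 (SE; adjusted p 0.246) without overlap.

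**Figure D3:**
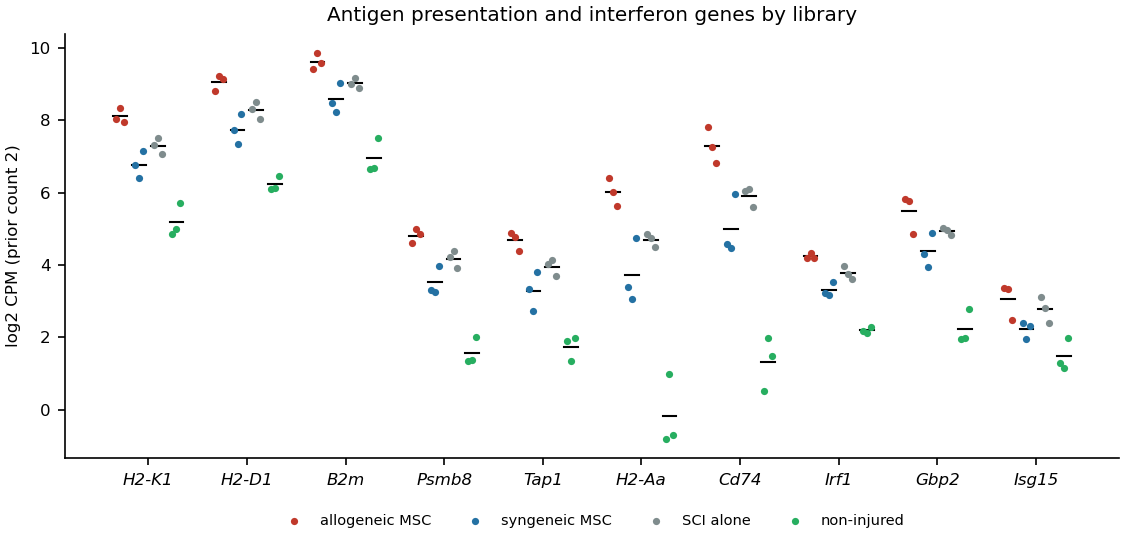
Log2 CPM (prior count 2) of 10 antigen presentation and interferon genes in the 12 libraries; points are libraries, black bars group means of 3. Group means fall in the order allogeneic, SCI alone, syngeneic and non-injured for all 10 genes; the 3 allogeneic libraries lie above all others in 8 of the 10, Gbp2 and Isg15 being the exceptions.

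Listed type I interferon targets, genes of the antiviral response, did not pass the adjusted test. Of 22 tested, none was called, 15 had an unadjusted p below 0.05 (10.1% of all genes in this direction) and 9 had libraries that did not overlap (7.03%). The median log2 fold change was 0.87. Mx1, which restricts influenza virus, had 8.30, 7.22 and 2.21 CPM with allogeneic cells, against 1.75, 0.613 and 1.80 CPM with syngeneic cells (adjusted p 0.141). The lowest allogeneic library was replicate 3. The number with an unadjusted p below 0.05 depended on the library left out. It ranged from 5 without allogeneic replicate 1 and 6 without syngeneic replicate 2 to 21 without allogeneic replicate 3. The result covers the 22 listed genes only, since some interferon-induced genes outside the lists were called higher. Among these were Ifi209 (log2 fold change 2.23, adjusted p 0.0203), Mndal (2.08, adjusted p 0.0456) and Epsti1 (1.80, adjusted p 0.00681). Their calls were lost in 3, 6 and 1 of 14 alternative fits.

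Calls among antigen presentation and interferon genes were less stable than the fold changes. All 9 called genes kept a positive fold change in every fit with a library left out, but 0 passed without syngeneic replicate 2 (adjusted p 0.0596 to 0.249), 1 without syngeneic replicate 1 (0.0354 to 0.246), 2 without allogeneic replicate 2, 5 without allogeneic replicate 1 and 6 without allogeneic replicate 3. By contrast, 9 passed without syngeneic replicate 3. With the 6 transplanted libraries fitted alone, 0 of the 9 and 14 of the 28 lymphocyte genes passed.

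The promoters of 3 called antigen presentation and interferon genes are shown because they hold the letters of known interferon response elements. Of the 9 called genes of this class, only these 3 had a match. Cd74, H2-K1, H2-D1, H2-Q7, Psmb9 and Tap1 had no match or no window. Called lymphocyte genes with a TTCNNNGAA match included Cd3d, Gzmb, Il7r and Nkg7. Each window runs from 250 bases before to 50 bases after a RefSeq start of the gene on GRCm38.p6, 5′ to 3′ on the gene's strand. The windows are Irf1 at chr11:53769764-53770063 (plus strand), Psmb8 at chr17:34197945-34198244 (plus strand) and Tgtp1 at chr11:48992197-48992496 (minus strand). The Psmb8 window lies wholly inside the GENCODE bounds given above for that gene, past their first base. Irf1 has 2 windows, and the 1 with a match is shown. Capitals mark matches to TTCNNNGAA, the gamma-activated site, and to GAAA, any 2 bases and GAAA again, a core of the interferon-stimulated response element.
Irf1: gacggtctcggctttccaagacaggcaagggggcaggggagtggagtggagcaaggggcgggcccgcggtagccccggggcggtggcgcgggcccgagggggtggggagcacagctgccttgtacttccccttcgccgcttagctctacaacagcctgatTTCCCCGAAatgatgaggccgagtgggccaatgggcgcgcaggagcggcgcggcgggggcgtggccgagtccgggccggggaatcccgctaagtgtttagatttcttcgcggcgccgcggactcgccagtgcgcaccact
Psmb8: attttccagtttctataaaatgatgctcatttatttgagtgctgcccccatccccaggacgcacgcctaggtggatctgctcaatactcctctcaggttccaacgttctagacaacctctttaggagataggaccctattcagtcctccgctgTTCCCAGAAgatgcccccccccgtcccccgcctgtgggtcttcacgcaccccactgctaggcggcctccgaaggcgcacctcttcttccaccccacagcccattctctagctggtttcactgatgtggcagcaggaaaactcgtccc
Tgtp1: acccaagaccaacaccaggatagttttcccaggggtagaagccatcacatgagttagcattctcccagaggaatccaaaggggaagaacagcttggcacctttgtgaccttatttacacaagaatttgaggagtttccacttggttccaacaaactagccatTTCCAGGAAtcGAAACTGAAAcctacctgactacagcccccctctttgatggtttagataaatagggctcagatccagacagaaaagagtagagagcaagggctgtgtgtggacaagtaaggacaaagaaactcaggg
The TTCNNNGAA match began 90 bases before the RefSeq start of the window in Irf1, 97 in Psmb8 and 88 in Tgtp1. The response element match of Tgtp1 began 77 bases before that start. Both motifs were searched on both strands of 32851 windows. TTCNNNGAA was present in 8.3% of all windows, in 6.83% of those of genes tested and in 13 of 88 windows of genes called higher (14.8%). The response element core was present in 3.44%, 3.12% and 10 of 88 windows (11.4%). Of the 98 genes called higher, 69 had a window. A match describes these letters only. The motifs were chosen after the expression values were seen.

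For most genes called higher, the level in SCI alone lay between those of the transplanted groups. For 93 of the 98 genes called higher, the mean log2 CPM of SCI alone lay above the syngeneic and below the allogeneic mean; it lay below both for 4 and above both for 1. The called genes were selected for a wide gap between the transplanted groups, which by itself makes a level between them likely. The share of genes with SCI alone in between was not computed over all genes tested. The 93 thus have no comparison, and no conclusion is drawn from them. The distances come from the same selected genes, and they differed by class. For the 28 lymphocyte genes the median log2 difference was 2.94 for allogeneic minus SCI alone and 0.58 for SCI alone minus syngeneic. For the 9 antigen presentation and interferon genes the medians were 0.82 and 0.54, and for the other 61 they were 1.63 and 0.78. In 91 of the 98 genes the 3 allogeneic libraries lay above all 9 others; the share over all genes tested, 1.37%, is no comparison for it, since the called genes already lay above the syngeneic libraries. Ptprc, CD45 of all white blood cells, had 73.3, 105 and 66.0 CPM with allogeneic cells, against 29.6, 19.7 and 53.9 CPM with syngeneic cells, while SCI alone had 61.3 to 72.3 CPM (adjusted p 0.147 between the transplanted groups).

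Most phagocytic myeloid genes lay higher with allogeneic cells without reaching the adjusted threshold. Of 22 genes of phagocytic myeloid cells, 0 were called and 17 had an unadjusted p below 0.05 (10.1% of all genes in this direction). The median log2 fold change was 1.05. Cst7, a protease inhibitor of activated microglia, had 65.6, 88.0 and 63.9 CPM with allogeneic cells, against 21.8, 10.8 and 46.0 CPM with syngeneic cells (log2 fold change 1.48 ± 0.38 SE, adjusted p 0.150). Clec7a, the dectin 1 receptor, had 78.4, 121 and 128 CPM, against 37.9, 23.5 and 84.6 CPM (1.17 ± 0.37, adjusted p 0.237), with syngeneic replicate 3 above allogeneic replicate 1. The 17 became 6 without syngeneic replicate 1, 5 without syngeneic replicate 2, 9 without allogeneic replicate 2 and 6 without allogeneic replicate 3. Without syngeneic replicate 3 it was 21, of which 18 were called.

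Of 14 homeostatic microglia genes, 10 had an unadjusted p below 0.05 (10.1% of all genes in this direction) and the median was 0.63. Cx3cr1, the fractalkine receptor, had 216, 286 and 252 CPM with allogeneic cells, against 129, 97.1 and 201 CPM with syngeneic cells (log2 fold change 0.82 ± 0.23 SE, adjusted p 0.181). Aif1, the microglial protein Iba1, had 22.8, 33.1 and 36.3 CPM, against 14.1, 13.2 and 23.5 CPM (0.87 ± 0.24, adjusted p 0.179). P2ry12, a receptor lost on activated microglia, had 46.0, 55.2 and 53.4 CPM with allogeneic cells, against 38.8, 43.0 and 46.1 CPM with syngeneic cells. Groups of Aif1 and P2ry12 overlapped through allogeneic replicate 1 and syngeneic replicate 3. The 10 became 4 without syngeneic replicate 1, 5 without syngeneic replicate 2 and 3 without allogeneic replicate 2, and without syngeneic replicate 3 as many as 10 were called.

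Of 20 monocyte and macrophage genes, Ly6c2 was called and 13 had an unadjusted p below 0.05, with a median of 0.99. Ly6c2, an antigen of inflammatory monocytes that activated CD8 T cells also carry, had 4.02, 8.80 and 3.09 CPM with allogeneic cells, against 0.306, 0.286 and 0.642 CPM with syngeneic cells (log2 fold change 3.70 ± 0.49 SE, adjusted p 0.00656; adjusted p 0.0597 and 0.0596 without syngeneic replicate 1 or 2). Ccr2, the receptor that brings monocytes into tissue, had 5.58, 10.04 and 5.17 CPM, against 1.40, 1.23 and 3.21 CPM (1.84 ± 0.37, adjusted p 0.0524). Tnf had 1.04, 2.26 and 1.20 CPM with allogeneic cells, against 0.612, 0.449 and 1.16 CPM with syngeneic cells (adjusted p 0.285). Arg1, an enzyme of repair macrophages, stayed under 1 CPM in all 6 libraries and its groups overlapped. Of 11 neutrophil genes 1 had an unadjusted p below 0.05 (5 without syngeneic replicate 2), near the share of 10.1% over all genes in this direction. Of 14 complement genes 9 did, with a median of 1.03. None was called in either list. For complement the 9 became 2 without syngeneic replicate 1, 4 without syngeneic replicate 2 and 5 without allogeneic replicate 2 or 3, and without syngeneic replicate 3 all 13 at an unadjusted p below 0.05 were called. For monocyte and macrophage genes the 13 became 8 without syngeneic replicate 1 or 2, and 14 were called without syngeneic replicate 3.

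Scar-forming and astrocyte genes followed single libraries. Of 20 fibroblast and fibrillar collagen genes, 0 were called and 7 lay higher at an unadjusted p below 0.05 (10.1% of all genes). The median log2 fold change was 1.10. Col1a1, the main chain of fibrillar collagen, had 105, 350 and 282 CPM with allogeneic cells, against 22.2, 31.4 and 243 CPM with syngeneic cells (1.32 ± 0.81 SE, adjusted p 0.475). Syngeneic replicate 3 lay above allogeneic replicate 1. Without syngeneic replicate 3, 19 of the 20 genes had an unadjusted p below 0.05 and 13 were called. Without syngeneic replicate 1 or 2, or without allogeneic replicate 2 or 3, the number at an unadjusted p below 0.05 was 0.

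Of 18 reactive astrocyte genes, 8 lay higher at an unadjusted p below 0.05 (10.1% of all genes) and the median was 0.77. Gfap, the filament protein of reactive astrocytes, had 5626, 8155 and 5756 CPM with allogeneic cells, against 3737, 3819 and 5870 CPM with syngeneic cells (log2 fold change 0.54 ± 0.27 SE, adjusted p 0.391), so that the groups overlapped. In 14 homeostatic astrocyte genes the median was -0.02 and no gene had an unadjusted p below 0.05. C3, a complement protein of inflammatory astrocytes and myeloid cells, had 554, 901 and 598 CPM, against 283, 211 and 757 CPM (adjusted p 0.489). The 8 reactive astrocyte genes became 4 without syngeneic replicate 1 or 2 or allogeneic replicate 2 or 3, and 12 without allogeneic replicate 1. Without syngeneic replicate 3 they became 18, of which 10 were called. Scar proteoglycan genes, 14 in number, had a median of -0.06.

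**Figure D4:**
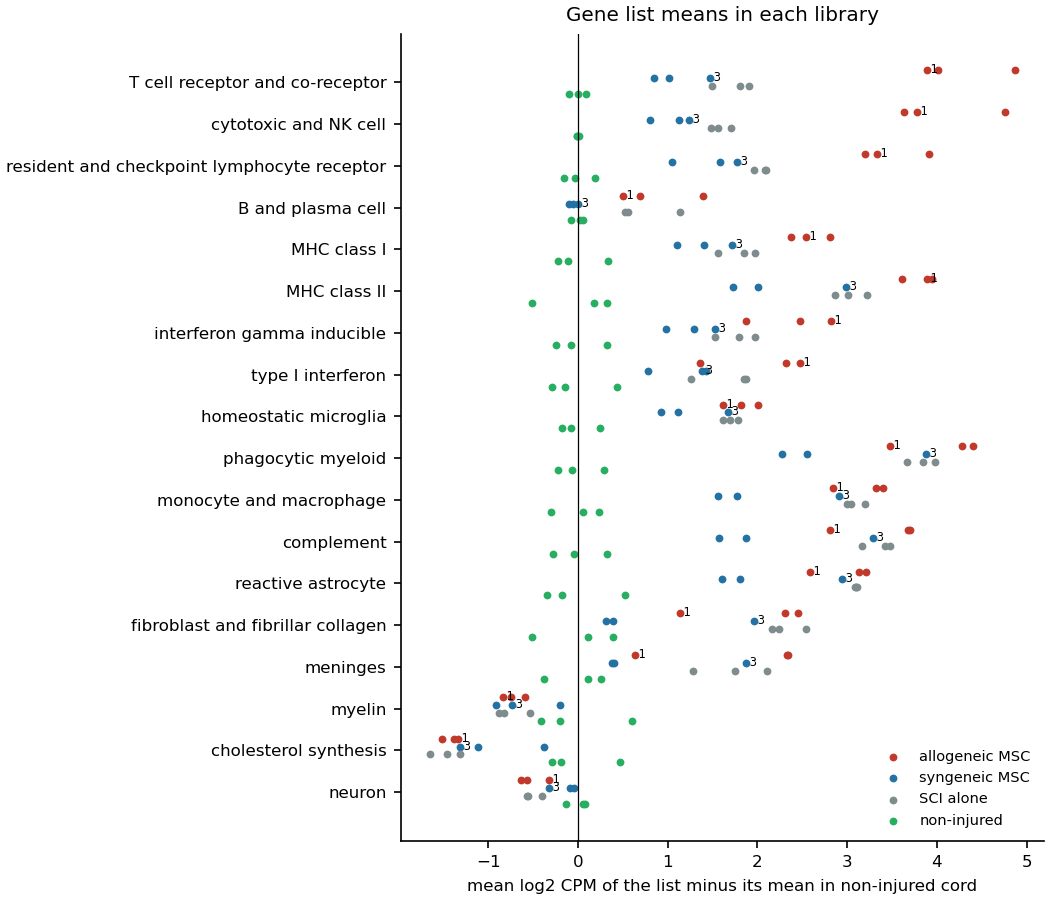
For 18 gene lists, the mean log2 CPM of the tested members in each library minus the mean of the list in non-injured cord (x axis); colours are the 4 groups, and small digits mark allogeneic replicate 1 and syngeneic replicate 3. The allogeneic libraries stand apart in the 3 lymphocyte lists, at 3.20 to 4.87, against 0.80 to 1.78 for syngeneic libraries; in myeloid, complement, astrocyte and fibroblast lists syngeneic replicate 3 lies near SCI alone.

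The spread within groups can be read from the list means, given as log2 differences from non-injured cord. T cell genes averaged 3.89, 4.87 and 4.02 in the allogeneic libraries, against 1.01, 0.85 and 1.47 in the syngeneic libraries, with 1.499 to 1.91 in SCI alone. Fibroblast genes averaged 1.13, 2.46 and 2.31, against 0.31, 0.40 and 1.96, with 2.17 to 2.54 in SCI alone. Complement genes averaged 2.81, 3.68 and 3.70, against 1.88, 1.57 and 3.29, with 3.17 to 3.48 in SCI alone. For T cell genes the gap between groups was wider than the spread within them; for fibroblast and complement genes, syngeneic replicate 3 exceeded allogeneic replicate 1.

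Neuronal genes were lower in direction with allogeneic cells. All 15 neuron genes had a negative fold change, with a median of -0.34, and 4 had an unadjusted p below 0.05 (4.32% of all genes did so in this direction); none was called. Snap25, a protein of synaptic vesicle release, had 2204, 1727 and 2034 CPM with allogeneic cells, against 2846, 3457 and 2242 CPM with syngeneic cells (log2 fold change -0.52 ± 0.17 SE, adjusted p 0.248). Nefl, the light neurofilament chain, had 1939, 2069 and 1562 CPM, against 2384, 2695 and 1965 CPM (-0.34 ± 0.18, adjusted p 0.408). In Snap25 all allogeneic libraries lay lower, and SCI alone, at 1737 to 2145 CPM, lay within their range. The 4 neuron genes became 1 without allogeneic replicate 2 or syngeneic replicate 2, 2 without allogeneic replicate 3 or syngeneic replicate 1, and 7 without allogeneic replicate 1. Of 18 genes of synapses and neurotransmission 2 had an unadjusted p below 0.05, with a median of -0.46, and none was called. Their number was 10 without allogeneic replicate 1 (median -0.86) and 0 without allogeneic replicate 2 or 3 or syngeneic replicate 1. Myelin genes, 15 in number, had a median of -0.09 and no gene with an unadjusted p below 0.05; the log2 fold change of Mbp, which encodes myelin basic protein, was 0.01 ± 0.36 (SE).

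Genes of cholesterol synthesis had a negative median log2 fold change, -0.55 over 18 genes. None was called, 9 had an unadjusted p below 0.05 and 8 had libraries that did not overlap (5.19% of all genes did so in this direction). Hmgcs1, an early enzyme of the pathway, had 285, 246 and 240 CPM with allogeneic cells, against 342, 729 and 288 CPM with syngeneic cells (log2 fold change -0.82 ± 0.37 SE, adjusted p 0.345). Fdft1, squalene synthase, had 63.7, 58.2 and 63.9 CPM, against 83.1, 127 and 69.4 CPM (-0.59 ± 0.20, adjusted p 0.254). Syngeneic replicate 2 was the highest in both. Without it the median of the list was -0.25 and 0 of the 18 genes had an unadjusted p below 0.05. The 9 became 5, 3 and 1 without allogeneic replicates 1, 2 and 3, and 14 without syngeneic replicate 3. Syngeneic replicate 2 also had the highest mitochondrial share of the 6, 8.80% of counts, against 5.14 to 5.62% in the other 5; the part of this in the result was not tested.

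The 3 genes called lower were Gm32444, Lbhd2 and Tspear, named here because they are all that fell. Lbhd2 had 6, 3 and 6 counts with allogeneic cells, against 24, 22 and 20 counts with syngeneic cells (log2 fold change -1.68 ± 0.30 SE, adjusted p 0.0314). Tspear had 2, 2 and 4 counts, against 16, 20 and 10 counts (-2.01 ± 0.38, adjusted p 0.0416), and Gm32444 10, 6 and 20 counts, against 46, 52 and 26 counts (-1.34 ± 0.25, adjusted p 0.0372). All lie at low counts, and each lost its call whenever a library other than syngeneic replicate 3 was left out (adjusted p 0.0512 to 0.222).

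Genes that would report the graft itself were examined last. Of 15 mesenchymal stromal cell genes 5 had an unadjusted p below 0.05, with a median of 0.43, and none was called; many are also made by resident fibroblasts and vessels. The 5 became 0 to 2 without allogeneic replicate 2 or 3 or syngeneic replicate 1 or 2, 8 without allogeneic replicate 1 and 9 without syngeneic replicate 3. Of 9 bone and cartilage genes 4 had an unadjusted p below 0.05, with a median of 0.41; none did without syngeneic replicate 1 or 2, and 2 did without allogeneic replicate 2 or 3. Of 12 trophic factor genes, which MSC are known to secrete in culture, 3 lay higher and 1 lower at an unadjusted p below 0.05 (10.1% and 4.32% of all genes). This became 1 and 0 without allogeneic replicate 3, and 6 and 1 without syngeneic replicate 3, of which 2 were called. Bdnf, a neurotrophin, had 9.01, 6.66 and 7.75 CPM with allogeneic cells and 8.26, 6.45 and 7.77 CPM with syngeneic cells, without a difference beyond their spread. The Y-linked genes Ddx3y, Eif2s3y, Kdm5d and Uty had 0 counts in all 12 libraries, while Xist had 480 to 867 CPM. Because the sex of the donors is not stated, these 0 counts cannot show whether grafted cells were present.

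**Figure D5:**
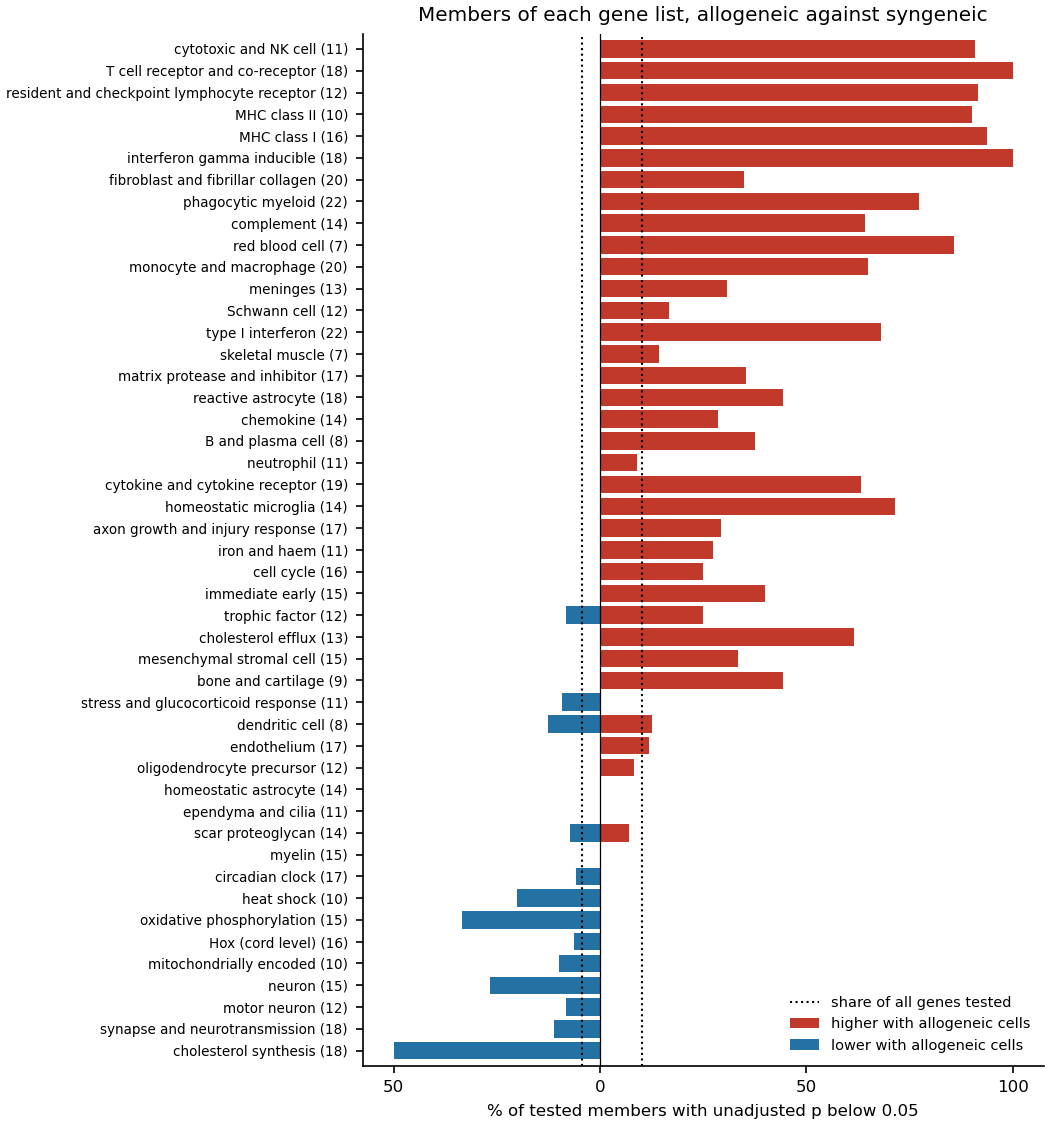
For the 47 gene lists with at least 7 tested members (number in brackets), the percentage of tested members with an unadjusted p below 0.05, to the right where higher and to the left where lower with allogeneic cells; lists are ordered by median fold change, and dotted lines mark 10.1% and 4.32%, the shares over all genes. T cell and interferon gamma lists reach 100% on the right, and cholesterol synthesis 9 of 18 members on the left.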

How the data were processed

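Per the labels' protocols, RNA from mechanically dissociated spinal cord was cleaned with a DNase step and made into libraries with a stranded, poly(A)-selecting kit. The authors deposited raw read counts per Ensembl gene, 46078 genes in 12 libraries. Named in the submitters' processing notes, without role or order, are GRCm38 and the tools STAR 2.5.1, featureCounts 1.5.1, StringTie 1.3.3, Trim Galore 0.4.1, Picard and FastQC 0.11.5. The sources used here do not state the annotation release, the strand setting or the treatment of multiply mapped reads. Genes that overlap on opposite strands or share exons on 1 strand are thus uncertain. The former include Cd3e, Ctsw, Themis, Psmb8, Psmb9, Tap1, Irf1, Trdc, Nefl, Bdnf, Hmgcs1, Fdft1, Cxcl10, P2ry12, Cd247, Foxp3, Gbp2 and Cx3cr1. The latter include Cd74, Lck, Tgtp1, Tbc1d10c, Cd247, Klrb1c, Ifng and Foxp3.

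From these counts, genes were filtered with filterByExpr (minimum count 10, minimum total 15), scaled by TMM (trimmed mean of M values) and tested with edgeR 4.0.16 (R 4.3.3), robust quasi-likelihood, glmQLFTest. The fit used all 12 libraries, a mean for each of 4 groups and 8 residual degrees of freedom; the contrast was allogeneic minus syngeneic. A gene is called at a Benjamini-Hochberg adjusted p below 0.05 over all genes tested. CPM uses TMM-scaled totals, log2 CPM a prior count of 2. Each SE was derived from the test, as the absolute log2 fold change divided by the square root of the F statistic. It is thus approximate, above all at low counts. Depth was 8705942 to 26151928 counts per library; the smallest library limits the precision of low genes. Replicate numbers follow accession order and pair nothing. Coordinates are from GENCODE M21 and promoter windows from RefSeq, both on GRCm38.

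Named genes are the 12 largest called rises and falls and the 10 largest fold changes each way (libraries not overlapping, mean log2 CPM at or above 1), the 2 members with the smallest p of each of 49 lists, and Cd3e, Cd8a, Gzmb, Ifng, Cxcl9, H2-Ab1, Gfap, Aif1, Mbp, Snap25, Col1a1, Arg1, Tnf and Bdnf; not every gene so picked is printed. Others were chosen after their values were seen, among them Cd3g, Cd4, Lck, Zap70, Gzmk, Prf1, Fasl, Klrd1, Klrb1c, Ncr1, Foxp3, Cxcr3, Zfp683, Tbx21, Lag3, Pdcd1, Ptprc, H2-K1, B2m, Psmb8, Psmb9, Psmb10, Tap1, Cxcl10, P2ry12, C3, Nefl, Ighm, Ms4a4b, Themis, Trdc and the 3 falls. Members and lists were chosen with earlier results of these data known. Lists are described by counts and medians, with no test over a list. Alternatives were DESeq2 1.42.0 and its size factors, library totals alone, limma 3.58.1 voom with and without sample weights, no robust estimation, no filter, the 6 transplanted libraries alone, and each of these 6 left out.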

Additional observations from a re-analysis of the deposited data

How the results depend on the processing

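The 98 genes called higher and 3 called lower became 334 and 24 with DESeq2, 362 and 39 with limma-voom and sample quality weights, and 21 and 0 with the 6 transplanted libraries alone, where 1483 genes had an unadjusted p below 0.05. The lower count was 1 with library totals alone and 0 without a filter on low counts (2602 genes at an unadjusted p below 0.05), where 116 were called higher. With a library left out, the counts ranged from 24 to 1135 higher and from 0 to 43 lower. DESeq2 size factors, library totals, limma-voom and no robust estimation gave 99 to 129 higher. Of 175 named genes, 51 were called, 18 in every one of 14 alternatives; 33 lost the call in at least 1, and 59 others gained one. Signs changed in 7 genes that were not called. Log2 fold changes were -0.069 for Bdnf with sample quality weights and -0.016 for Mbp without a filter. With libraries left out they ranged from -0.047 to 0.161 for Bdnf, -0.187 to 0.383 for Mbp, -0.014 to 1.37 for Arg1, -0.13 to 0.564 for Cfap126, -0.213 to 0.095 for Ighm, -0.245 to 0.125 for Xist and -0.463 to 0.038 for Fa2h. Counted once for each list and alternative, the median of a list moved beyond the spread between libraries in 17 cases and did not in 669. That spread comes from the same 6 libraries, and leaving 1 of them out can hardly move a median beyond it. The 669 are therefore no measure of stability. The cause of these changes was not tested. No paired analysis was possible because the labels give no replicate numbers that groups share. Low lymphocyte counts limit precision: a few reads in syngeneic libraries set the size of those folds.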
